A study of Mus musculus with 2 samples.

Results

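The 10 genes described here write, read, erase or shield DNA methylation in the mouse egg, namely Dnmt1, Dnmt3a, Dnmt3b, Dnmt3l, Uhrf1, Tet1, Tet2, Tet3, Dppa3 and Zfp57. They were taken by symbol from a table of 36227 Ensembl genes, and each of the 10 matched 1 gene with deposited counts. The RNA came from naturally ovulated mature (metaphase II) oocytes of ICR mice, an outbred strain, and no other genotype or treatment is named for either group. The young group was 3 months old and the aged group 12 months old. Each group is 1 library made from 18 oocytes lysed together, 3 from each of 6 females. The series title names BubR1, a mitotic checkpoint protein, while the 2 libraries compare maternal age alone. With 1 library per age the spread between females or between libraries cannot be estimated, and no test is possible. Genes are therefore described by the size of the difference, and values in pairs are given young first and aged second. Young eggs and aged eggs below stand for the 1 library of each age.

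DNA methylation is placed on cytosines next to guanines (CpG sites) and is set in the growing oocyte by DNMT3A together with its catalytically inactive partner DNMT3L. DNMT3B is the related de novo enzyme best known from the embryo after implantation. DNMT1 copies the pattern onto the new strand at each replication, guided by UHRF1, which binds sites methylated on the old strand alone and recruits the enzyme. DPPA3 (also called Stella or PGC7) is a maternal protein that keeps UHRF1 out of the oocyte nucleus and shields the maternal genome from the oxidation of methylated cytosine after fertilisation. ZFP57 is a zinc finger protein that binds a methylated motif at imprinted control regions and, through TRIM28, keeps them methylated. The TET enzymes oxidise methylated cytosine, and TET3 is the form known for this activity in the zygote. The mature egg makes no new transcripts, so its RNA is what was stored during growth and kept through maturation.

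The sequences below are given for the maintenance pair because Dnmt1 was lower and Uhrf1 higher in aged eggs. Other genes of the 10 also went opposite ways. A further reason is that Dnmt1 has an oocyte start site that the counts cannot separate from its somatic one. Of the 10 genes, 9 had entries in the RefSeq promoter table of build GRCm38.p6, which gives 250 bases before to 50 bases after each start. The gene without an entry was Dppa3. The 18 entries were searched for the letters CG, which read the same on both strands, and these letters are in capitals. At least 1 CG was present in 94.6% of the 32851 promoters of this length, and their median was 7 CG, with quartiles of 3 and 20.
Dnmt1, upstream start, chr9:20959839-20960138, minus strand: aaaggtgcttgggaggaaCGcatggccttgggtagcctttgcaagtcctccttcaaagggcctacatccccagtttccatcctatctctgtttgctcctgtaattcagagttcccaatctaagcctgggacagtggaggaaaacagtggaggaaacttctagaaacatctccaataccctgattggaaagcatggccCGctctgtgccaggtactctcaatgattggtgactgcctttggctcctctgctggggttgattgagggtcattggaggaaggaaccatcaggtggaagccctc
Dnmt1, downstream start, chr9:20952930-20953229, minus strand: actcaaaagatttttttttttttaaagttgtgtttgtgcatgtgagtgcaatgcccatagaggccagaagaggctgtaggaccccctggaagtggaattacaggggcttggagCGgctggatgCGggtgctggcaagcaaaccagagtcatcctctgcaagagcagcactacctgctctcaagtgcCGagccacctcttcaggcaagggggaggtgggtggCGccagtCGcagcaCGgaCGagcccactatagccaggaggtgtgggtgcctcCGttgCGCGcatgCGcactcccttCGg
Uhrf1, chr17:56304063-56304362, plus strand: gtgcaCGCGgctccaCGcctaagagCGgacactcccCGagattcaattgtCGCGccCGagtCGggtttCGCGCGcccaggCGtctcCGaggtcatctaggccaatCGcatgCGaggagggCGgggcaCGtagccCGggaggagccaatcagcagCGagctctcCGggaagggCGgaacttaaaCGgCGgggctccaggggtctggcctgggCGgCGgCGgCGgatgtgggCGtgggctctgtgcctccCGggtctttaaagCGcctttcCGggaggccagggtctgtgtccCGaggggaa
The upstream Dnmt1 window held 2 CG, and 14.1% of promoters held fewer. The downstream Dnmt1 window, whose start lies 6909 bases away, held 12 CG. The Uhrf1 window held 33 CG, more than 91.4% of promoters. Another Uhrf1 entry held 12 CG, and a further Dnmt1 entry held 33 CG. In GENCODE release M21 the coding transcript from the upstream Dnmt1 start has 1501 codons, and the one from the downstream start shown here has 1620 codons. Transcripts from a pair of starts further downstream, at 20952623 and 20952605, have 1501 and 1502 codons, so the shorter length is not particular to the upstream start. A shorter enzyme made from an upstream start is the known oocyte form. The deposited counts are per gene and give no value for either form.

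Because stored egg mRNAs are kept short-tailed or extended through signals near their 3′ end, and the libraries were primed with oligo(dT), the last 100 bases of the longest coding transcript of each gene were also searched. The letters searched on the transcript strand were TTTTAT and TTTTAAT, the usual form of the cytoplasmic polyadenylation element. They were found in 5 of the 10 genes, Dnmt1, Dnmt3a, Tet1, Tet2 and Tet3, and in 1895 of 9231 genes with a coding transcript (20.5%). Those 9231 genes all averaged 20 or more counts, as did 7 of the 10, and among these 7 the letters were in 2, Dnmt1 and Dnmt3a. The 30 bases around the match are given for both abundant methyltransferases, with the match in capitals.
Dnmt1, 42 bases from the 3′ end: gacttgatgtagTTTTATatgttgtaatat
Dnmt3a, 49 bases from the 3′ end: tgtttatatataTTTTATtttcgctataaa
The letters were not in this window of Dnmt3b, Dnmt3l, Uhrf1, Dppa3 or Zfp57. Over those 9231 genes the aged over young log2 ratio had a median of 0.37 with the letters and 0.45 without them. Their median GC content was 48.1% with the letters and 50.2% without. The ratio also moved with GC content, as given below, and the part of GC content in this difference was not tested. A match is a match of letters and was not tested as a working signal.

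The libraries held 19475110 counts (young) and 18597656 counts (aged). Levels are given as CPM, the count scaled by the library total in the usual way, and a ratio is the aged CPM over the young CPM, on a log2 scale where stated. Intervals are exact 95% Poisson intervals of a level and exact 95% Clopper-Pearson intervals of a ratio, and they cover counting error only, since amplified reads without molecular identifiers are not independent molecules. Of all genes, 10211 averaged 20 or more counts across the libraries, and their median log2 ratio was 0.43. The 100 most abundant genes took 51.1% of the young and 40.6% of the aged counts, so the ratio of a typical gene depends on the scaling, and for the genes of the 10 that passed, ratios relative to the median gene (centred) are given beside those scaled to the totals. CPM is a share of the library, so more RNA of a gene in each egg and less RNA of the other genes cannot be told apart. All 12 oocyte markers were well covered, and their median log2 ratio was −0.56. By 2-fold or more, 4 were lower (Gdf9, Zp1, Oosp1 and Ooep; 10.6% of all genes) and 1 higher (Nlrp5; 27.9% of all genes). Centred, 5 were lower (17.3% of all genes) and 0 higher (16.0%). With the median of genes of like length and GC content taken off, 7 were lower (14.9%) and 0 higher (13.6%). Of 27 markers of granulosa, cumulus, theca, stromal, endothelial and blood cells, 9 had no deposited count, among them Amh, Foxl2, Inhba, Lhcgr and Star. A missing count is not an entered 0, and these genes are not read as absent. Their summed level was 56.1 CPM in young and 109 CPM in aged eggs, mostly Cyp19a1 (22.4 and 56.8 CPM) and Pecam1 (19.6 and 38.9 CPM). They did not move one way, since Nr5a2 had 38 and 106 counts and Fshr 0 and 16, while Vim had 51 and 0, Cyp11a1 27 and 1, Inha 14 and 0 and Col1a1 19 and 7. Of the 6 that passed the mean of 20 counts, Vim was at least 16.2-fold lower against a limit of 3 counts, which leaves out the counting error of the 51 counts. Vim passed through its young count alone, which fixes its direction. The part of such cells in the results was not tested.

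Of the 10 genes, 7 passed the mean of 20 counts. In aged eggs 3 of them, Uhrf1, Dppa3 and Dnmt3b, were higher by 2-fold or more, as were 27.9% of all genes. Of the 7, 0 were lower by 2-fold or more, as were 10.6% of all genes. Zfp57 lay just inside that limit, at 1.99-fold lower, and Dnmt3b just outside the limit on the other side, at 2.06-fold higher. Relative to the median gene, 0 of the 7 were 2-fold higher (16.0% of all genes) and 1, Zfp57, was 2-fold lower (17.3%). The median of the 7 log2 ratios was −0.01, against 0.43 for all genes. The 95% interval excluded equality for 6 of the 7, all but Dnmt3a, as it did for 78.5% of all genes. The authors' deposited table marks genes with a p below 0.001, among them all of the 10 but Dnmt3a, Tet2 and Tet3. That mark, made from reads of 1 library per age, is on 50.05% of the genes that have a fold change in the authors' deposited table.

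**Figure D1:**
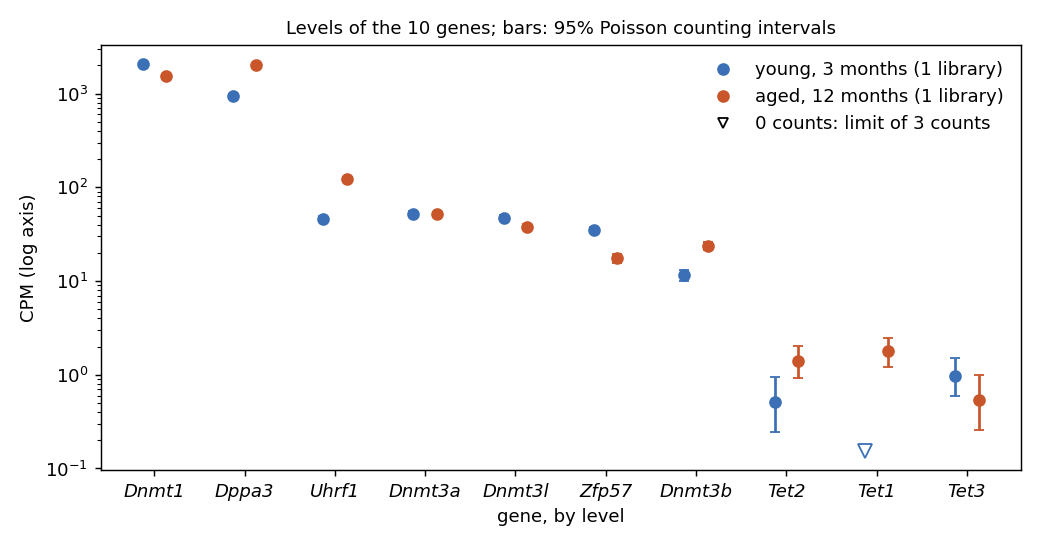
Levels of the 10 genes in the young (blue) and aged (orange) library, in CPM on a log axis, with 95% Poisson counting intervals and genes ordered by level. Dnmt1 and Dppa3 lie near or above 935 CPM in both libraries, the 3 Tet genes lie at or below 1.77 CPM, and the open triangle marks a limit of 3 counts (0.154 CPM), drawn in place of an interval for the 0 counts of Tet1 in young eggs.

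The maintenance pair went apart. Dnmt1, the maintenance methyltransferase (ENSMUSG00000004099, chromosome 9), had 39971 counts in young eggs and 28370 in aged eggs, or 2052 CPM (2032 to 2073) and 1525 CPM (1508 to 1543). The aged level was 1.35-fold lower (1.33 to 1.37), and 1.81-fold lower relative to the median gene. Its level stayed far above that of the other methyltransferases at both ages, at 349.6 CPM per kilobase of transcript in young eggs and 259.9 in aged eggs. Values per kilobase use the longest coding transcript. Whether reads of these oligo(dT)-primed libraries scale with transcript length was not tested.

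Uhrf1, the reader that brings DNMT1 to sites methylated on 1 strand (ENSMUSG00000001228, chromosome 17), had 894 and 2279 counts. Its level was 45.9 CPM (42.9 to 49.0) in young and 123 CPM (118 to 128) in aged eggs. This is 2.67-fold higher (2.47 to 2.89), the furthest of the 7 genes from equality with the totals, and 83.9% of all genes had a lower ratio. Relative to the median gene it was 1.99-fold higher, just short of the limit. The number of Dnmt1 counts for each Uhrf1 count was 44.7 in young and 12.4 in aged eggs. Such a ratio of 2 genes within a library does not depend on how the libraries are scaled, and here it gave a 3.59-fold higher Uhrf1 count per Dnmt1 count in aged eggs (3.32 to 3.89). Stretches of 35 bases of the Uhrf1 transcript also occur in the processed pseudogene Gm5648, 871 of them or 24.5%, and Gm5648 had 9 and 5 counts. How reads that match both places were counted was not given, so their part in the Uhrf1 counts is not known.

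The genes that set methylation during growth differed among themselves. Dnmt3a, the main de novo enzyme of the oocyte (ENSMUSG00000020661, chromosome 12), had 1019 and 964 counts, 52.3 CPM in young and 51.8 CPM in aged eggs. Its ratio of 0.991 had an interval from 0.906 to 1.08, so no difference was detectable with the totals, and relative to the median gene it was 1.36-fold lower. Its opposite-strand neighbour Dnmt3aos had 0 and 1 counts.

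Dnmt3l, the inactive partner that stimulates DNMT3A (ENSMUSG00000000730, chromosome 10), had 924 and 702 counts, 47.4 CPM (44.4 to 50.6) in young and 37.7 CPM (35.01 to 40.65) in aged eggs. The aged level was 1.26-fold lower (1.14 to 1.39), and 1.69-fold lower relative to the median gene. Per kilobase, the Dnmt3l level was above that of Dnmt3a at both ages, 26.04 against 5.40 CPM per kilobase in young and 20.7 against 5.35 in aged eggs. In CPM the order was the reverse, with Dnmt3a at 52.3 in young and 51.8 in aged eggs. The order per kilobase rests on transcript lengths of 1822 bases for Dnmt3l and 9685 bases for Dnmt3a. In GENCODE M21 the Dnmt3l gene overlaps Aire, a gene of the opposite strand, by 1664 bases. Aire had 403 and 164 counts, 2.35-fold lower in aged eggs, and since the use of strand in the counting was not given in the sources used here, reads of the pair in the overlap may not have been told apart. The Dnmt3l count per Aire count was 2.29 in young and 4.28 in aged eggs.

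Dnmt3b, the de novo enzyme of the later embryo (ENSMUSG00000027478, chromosome 2), had 225 and 442 counts, 11.6 CPM (10.1 to 13.2) in young and 23.8 CPM (21.6 to 26.1) in aged eggs. The aged level was 2.06-fold higher (1.75 to 2.43), so the interval reaches below 2-fold, and 1.53-fold higher relative to the median gene. Per kilobase, Dnmt3b lay below Dnmt3a in young eggs, at 2.67 against 5.40 CPM per kilobase, while both lay close together in aged eggs, at 5.50 and 5.35. In CPM Dnmt3b lay below Dnmt3a at both ages, as Dnmt3a had 52.3 and 51.8 CPM. The Dnmt3b count per Dnmt3a count was 2.08-fold higher in aged eggs (1.72 to 2.51). Dnmt3b shares 623 stretches of 35 bases (14.5%) with Dnmt3c, its germline relative, which had 5 and 6 counts.

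Within the DNMT family the balance moved little toward the de novo genes. Dnmt1 held 94.9% (94.6% to 95.1%) of the 42139 family counts in young eggs and 93.1% (92.8% to 93.4%) of the 30478 in aged eggs. Dnmt3b held 0.534% (0.467% to 0.608%) and 1.45% (1.32% to 1.59%). Dnmt3a held 2.42% and 3.16%, and Dnmt3l held 2.19% and 2.30%. These are Clopper-Pearson intervals of shares of counts. With counts divided by transcript length the Dnmt1 share was 91.1% and 89.2%.

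**Figure D2:**
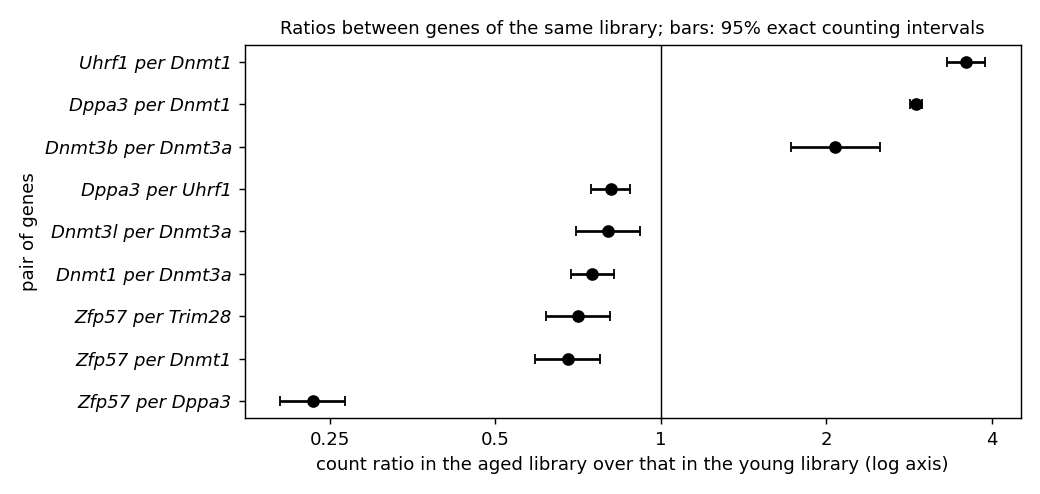
Ratio of the counts of 2 genes of the same library, aged over young, on a log axis with 95% exact counting intervals; the line at 1 is no change. Uhrf1 per Dnmt1 (3.59), Dppa3 per Dnmt1 (2.91) and Dnmt3b per Dnmt3a (2.08) lie above 1, and Zfp57 per Dppa3 (0.233) lies lowest.

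The genes that protect methylation also differed in direction. Dppa3, the maternal shield (ENSMUSG00000046323, chromosome 6), had 18205 and 37625 counts, 935 CPM (921 to 948) in young and 2023 CPM (2002.7 to 2043.7) in aged eggs. The aged level was 2.16-fold higher (2.13 to 2.20), and 1.61-fold higher relative to the median gene. Per kilobase it was the most abundant of the 10 genes at both ages, at 1122 and 2429 CPM per kilobase. In CPM it lay below Dnmt1 in young eggs (2052 CPM) and above Dnmt1 in aged eggs (1525 CPM). Of the 7 genes that passed, it and Uhrf1, the protein partner it holds out of the nucleus, were those whose whole interval lay above 2-fold, as for 18.0% of all genes, while 0 of the 7 lay wholly below 2-fold lower, as did 6.35% of all genes. The Dppa3 count per Uhrf1 count was 20.4 in young and 16.5 in aged eggs, a change of 0.811 (0.748 to 0.878). This ratio moved less than that of either gene to Dnmt1, since Dppa3 per Dnmt1 changed by 2.91 (2.84 to 2.98).

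Dppa3 has a transcribed processed copy on chromosome X, Dppa3-ps, which shares 225 stretches of 35 bases with it, 28.2% of those of the Dppa3 transcript. Dppa3-ps had 3531 and 6013 counts, 181 and 323 CPM, and was 1.78-fold higher in aged eggs (1.71 to 1.86). How the authors counted reads that match both places was not given in the sources used here, so the values of each are uncertain. Summed, the pair had 21736 and 43638 counts and was 2.10-fold higher in aged eggs (2.07 to 2.14). The copy held 16.2% of the sum in young and 13.8% in aged eggs.

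Zfp57, the imprint guardian (ENSMUSG00000036036, chromosome 17), had 678 and 326 counts, 34.8 CPM (32.2 to 37.5) in young and 17.5 CPM (15.7 to 19.5) in aged eggs. The aged level was 1.99-fold lower (1.74 to 2.27), and 2.67-fold lower relative to the median gene. Of the 7 genes it had the lowest ratio, and 10.6% of all genes had a lower one. Its transcript is 45.8% G and C, and genes of like length and GC content had a median log2 ratio of 0.89, so that its log2 ratio less that median was −1.88. Its cofactor Trim28, which bridges KRAB zinc finger proteins to histone methylation, had 43519 and 29556 counts and was 1.41-fold lower (1.39 to 1.43). The Zfp57 count per Trim28 count changed by 0.708 (0.618 to 0.810), so Zfp57 was lower by more than its cofactor. The Zfp57 count per Dppa3 count changed by 0.233 (0.203 to 0.266).

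The Tet genes were scarce and none reached the mean of 20 counts. Tet1 (ENSMUSG00000047146, chromosome 10) had 0 counts in young eggs, for which a limit of 3 counts (0.154 CPM) is used in place of a Poisson interval, and 33 counts or 1.77 CPM (1.22 to 2.49) in aged eggs. Against that limit of 3 counts it was at least 11.5-fold higher, which leaves out the counting error of the 33 counts. Tet2 (ENSMUSG00000040943, chromosome 3) had 10 and 26 counts, 0.513 CPM (0.246 to 0.944) and 1.40 CPM (0.913 to 2.05), or 2.72-fold higher (1.27 to 6.33). Tet3, the form known from the zygote (ENSMUSG00000034832, chromosome 6), had 19 and 10 counts, 0.976 CPM (0.587 to 1.52) and 0.538 CPM (0.258 to 0.989). It was 1.81-fold lower with an interval from 4.37-fold lower to 1.25-fold higher, so no difference was detectable at this depth. Per kilobase the highest Tet level was that of Tet2 in aged eggs, at 0.152 CPM per kilobase, against 5.35 for Dnmt3a there. The low Tet counts give a level of mRNA in these libraries and no measure of the enzymes.

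**Figure D3:**
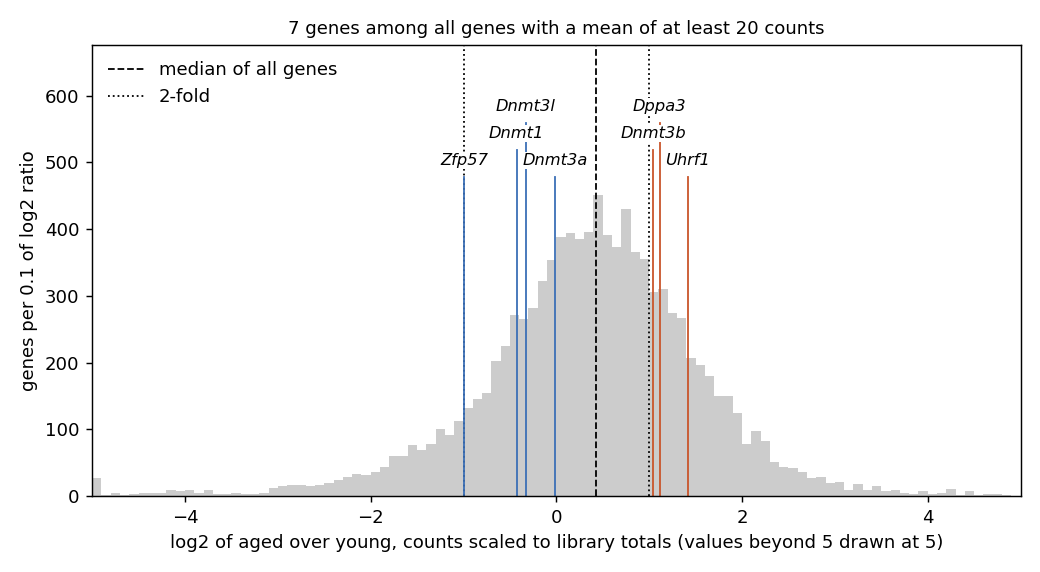
Number of genes by log2 ratio of aged over young for the 10211 genes that averaged 20 or more counts, with the 7 genes that passed drawn as lines (orange higher, blue lower). Zfp57 (−0.99), Dnmt1 (−0.43), Dnmt3l (−0.33) and Dnmt3a (−0.01) lie left of the median of all genes at 0.43 (dashed), and Dnmt3b (1.04), Dppa3 (1.11) and Uhrf1 (1.42) lie right of the 2-fold line (dotted).

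Taken as one set of counts, the 10 genes summed to 61945 in young and 70777 in aged eggs, or 3181 and 3806 CPM. Dnmt1 held 64.5% of this sum in young and 40.1% in aged eggs. Dppa3 held 29.4% and 53.2%, so the order of these most counted genes was opposite in the 2 libraries. Uhrf1 held 1.44% and 3.22%, and the other 7 genes together the small rest.

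The sign of each of the 7 ratios was the same under every scaling tried, while the 2-fold limit was not met by the same ones. Every alternative that rescales the libraries lowered all log2 ratios, so a gene below 0 with the totals could not change sign under it. A changed count minimum leaves the ratio of a gene as it is. The Dnmt3a interval with the totals included equality, so this gene has no clear direction. The log2 ratio of Uhrf1 ran from 0.99 to 1.42 over the 9 ways of scaling and filtering, that of Dppa3 from 0.69 to 1.11 and that of Dnmt3b from 0.47 to 1.04. For Zfp57 it ran from −1.88 to −0.98, for Dnmt1 from −0.86 to −0.43, for Dnmt3l from −0.76 to −0.33 and for Dnmt3a from −0.47 to −0.01. Over all genes the ratio moved with base composition, from a median log2 of 1.04 in the tenth of genes lowest in GC content (27.5% to 41.8%) to −0.28 in the highest (57.7% to 73.8%). Uhrf1, Dnmt1, Dnmt3l and Dnmt3b have 53.1% to 54.0% G and C in their transcripts and Dppa3 has 45.3%. With the median of genes of like length and GC content taken off, the log2 ratios were 1.30 for Uhrf1, 0.74 for Dppa3, 0.47 for Dnmt3b, −0.47 for Dnmt3a, −0.52 for Dnmt1 and −0.53 for Dnmt3l. The medians taken off were 0.57 for Dnmt3b and 0.20 for Dnmt3l, so genes close in GC content can differ by the bin they fall in. Uhrf1 and Dnmt1 have 53.7% and 54.0% G and C, and the medians taken off were 0.11 and 0.09. This step could therefore hardly change the gap between them, and the part of base composition was not tested.

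**Figure D4:**
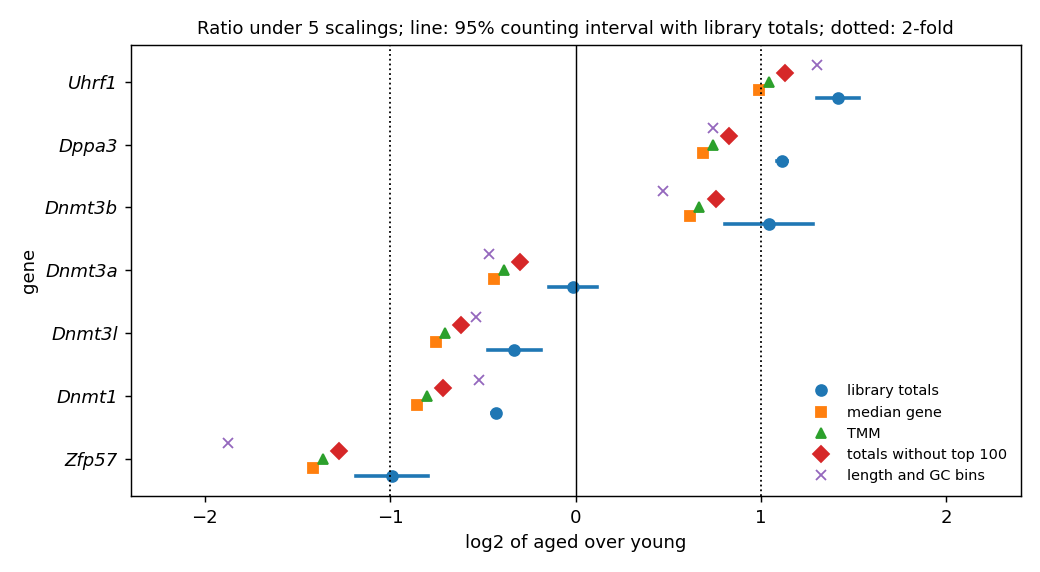
Log2 ratio of aged over young for the 7 genes under 5 scalings (symbols), with the 95% counting interval drawn as a line for the scaling to library totals and dotted lines at 2-fold. Every symbol of Uhrf1, Dppa3 and Dnmt3b lies right of 0, every symbol of Dnmt3a, Dnmt3l, Dnmt1 and Zfp57 lies left of it, and Zfp57 is past 2-fold lower under every scaling but the totals.

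Genes that work with the 10 were read from lists of known partners. Their counts past 2-fold are given with the totals, then centred, then with the median of genes of like length and GC content taken off. Of all genes, 27.9% were higher and 10.6% lower with the totals, and 16.0% and 17.3% centred. With length and GC taken off, 13.6% of all genes were higher and 14.9% lower. Single genes are given with the totals, and the shift that centring makes is the same for every gene. Of 16 other imprint maintenance factors and members of the KRAB zinc finger silencing complex, 12 passed the mean of 20 counts, 6 were higher by 2-fold and 1 lower (centred, 4 and 1; with length and GC, 1 and 3). The median log2 ratio was 0.87, and 0.11 with length and GC taken off. The furthest higher were Cbx1, a heterochromatin protein, with 703 and 2661 counts (3.96-fold), Rlf, a zinc finger protein, with 11 and 41 counts (3.90-fold, 1.97 to 8.42), and Nlrp2, a maternal-effect gene, with 361 and 1095 counts (3.18-fold). The others were Arid4a, Nlrp5 and Ctcf. Rlf passed the mean of 20 counts through its aged count alone, which fixes its direction. The 1 lower gene was Setdb1, the histone methyltransferase that TRIM28 recruits, with 426 and 188 counts (2.16-fold lower). Of others in the complex, named after their values were seen, Atf7ip had 143 and 166 counts and Cbx5 had 66 and 53 counts, and both intervals of the ratio included equality. Zfp445, the other zinc finger protein known for imprint control, had 1 and 15 counts, too few to pass.

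Of 11 regulators and partners of DNMT1, 8 passed, and 3 were higher and 2 lower (centred, 3 and 2; with length and GC, 0 and 2). The median log2 ratio was 0.61. Dmap1, which binds DNMT1 directly, had 126 and 23 counts and was 5.23-fold lower (3.34 to 8.55). Pcna, the replication clamp that tethers DNMT1, had 129 and 417 counts and was 3.39-fold higher. Xpo1, a nuclear export receptor, had 199 and 684 counts and was 3.60-fold higher. The other gene past 2-fold higher was Hdac2, and the other past 2-fold lower was Cdca7.

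Of 18 chromatin factors that guide methylation in the growing oocyte, 17 passed, and 5 were higher and 1 lower (centred, 4 and 2; with length and GC, 1 and 1). The median log2 ratio was 0.45, against 0.43 for all genes. Kdm1a, a histone demethylase, had 935 and 204 counts and was 4.38-fold lower (3.76 to 5.12). Nsd3, a histone methyltransferase, was 3.23-fold higher with 105 and 324 counts. Hira, a histone chaperone, had 2 and 40 counts, a ratio of 20.9 with an interval from 5.43 to 179. The other higher genes were Suz12, Kdm5b and Ezh2.

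Of 21 base excision and other partners of demethylation, 13 passed, and 4 were higher and 1 lower (centred, 2 and 1; with length and GC, 2 and 1), with a median log2 ratio of 0.63. The furthest were the glycosylases Mbd4 (46 and 160 counts, 3.64-fold higher), Ung (1563 and 4224 counts, 2.83-fold higher) and Neil2 (37 and 85 counts, 2.41-fold higher). Apex1 was also past 2-fold higher, and Neil1 past 2-fold lower. Neil1, with 37 and 17 counts, passed the mean of 20 counts through its young count alone, which fixes its direction. Of 11 methyl-CpG readers, 6 passed, and 2 were higher and 0 lower (centred, 2 and 1; with length and GC, 0 and 0), with a median of 0.77. The higher ones were Zbtb33, the reader also called Kaiso, with 164 and 598 counts (3.82-fold), and Mbd4 again. Mbd5 had 191 and 348 counts, 1.91-fold higher. Of 21 genes of the methyl donor and folate cycle, 14 passed, and 3 were higher and 0 lower (centred, 2 and 1; with length and GC, 1 and 1), with a median of 0.46. These were Mthfd1l (207 and 732 counts, 3.70-fold), Ahcyl2 (67 and 172 counts, 2.69-fold) and Ahcyl1 (217 and 533 counts, 2.57-fold).

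The imprinted genes, whose marks these factors set and keep, went both ways. With the totals, 29.4% of those that passed were higher by 2-fold and 11.8% lower, near the 27.9% and 10.6% of all genes. Of 33 on the list, 17 passed and 9 had no deposited count, 5 were higher by 2-fold and 2 lower (centred, 5 and 3; with length and GC, 3 and 2), and the median log2 ratio was 0.07. Plagl1 had 11 and 140 counts, 13.3-fold higher (7.22 to 27.3). Cdh15 had 2 and 42 counts, a ratio of 22.0 with an interval from 5.72 to 188. Plagl1 and Cdh15 passed the mean of 20 counts through the aged count alone, which fixes their direction. Igf2r, a receptor that clears the growth factor IGF2, had 309 and 44 counts, 6.71-fold lower (4.88 to 9.42). The other 3 higher genes were Peg3, Inpp5f and Usp29, and the other lower one was Meg3. The libraries hold RNA and no methylation values, so the state of the imprints was not analysed here.

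**Figure D5:**
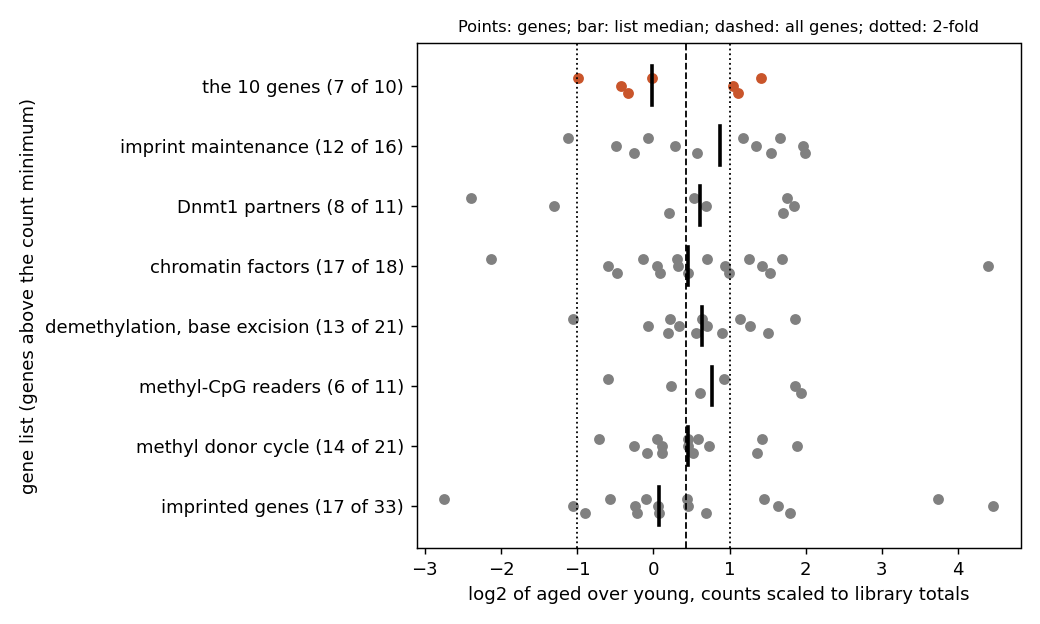
Log2 ratio of aged over young for each gene that passed the mean of 20 counts (points), by list, with the list median as a bar, the median of all genes dashed and 2-fold dotted. The medians run from −0.01 for the 7 of the 10 genes that passed to 0.87 for the imprint maintenance factors, and every list spans genes on both sides of 0.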

How the data were processed

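The sources give 2 libraries of pooled oocytes, 1 per age. Per the labels' protocols, mRNA was primed with an oligo(dT) primer of 24 bases, the cDNA was tailed with poly(A) and amplified in PCRs of 18 and of 14 cycles before SOLiD sequencing. The genome build was mm9, per the submitters' processing notes. The aligner, the counting program, the annotation, the use of strand and the treatment of reads that match several places were not given in the sources used here. The authors deposited whole-number counts per Ensembl gene for 18364 of 36227 genes, unnormalized. The authors also deposited log2 fold changes (young over aged), a z score, a p-value and q-values per gene, made from reads of 1 library per age by a program not given in the sources used here, and of these only the authors' mark was used.

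Symbols came from GENCODE mouse release M21 and matched 85.5% of all genes in the table and 93.7% of those with counts. Transcript length, GC content and overlaps came from the same release (build GRCm38), promoters from RefSeq (GRCm38.p6). Lengths were found for 97.0% of the genes that passed.

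Counts were scaled to library totals, and genes that averaged 20 or more counts were kept. A gene can pass this mean through the count of 1 library alone, and the filter then fixes the direction of its ratio. Where a library had 0 counts, 3 were set in its place, with no ratio if the other had 3 or fewer. With 1 library per age no test was run, and 2-fold was the rule of size. All 10 genes are named, and of each other list up to 3 genes of the largest change that passed; other genes of those lists, such as Pecam1, were named after their values were seen. The 10 genes and all lists were chosen with earlier results of these data known. The ratios of gene pairs, the sum of Dppa3 with its copy, the search for shared stretches of 35 bases (at least 30 of them) and the 3′ search were added after values were seen. Shared stretches were looked for in the longest coding transcript of each GENCODE gene, or the longest of any type where none is coding.

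Alternatives were centring on the median gene, TMM factors (edgeR 4.0.16), size factors (DESeq2 1.42.0), totals without the 100 most abundant genes, the median of 10 by 10 bins of length and GC content taken off, a mean of 100 counts, no minimum, and 5 counts added. In R 4.3.3 edgeR and DESeq2 gave scaling factors only. The rest used matplotlib 3.10.9, pandas 2.3.3, scipy 1.17.1 and numpy 2.4.6 in Python 3.11.15. The ratio and its interval were tested on simulated Poisson counts. These hold no duplicates from amplification and no spread between libraries, so the simulation does not cover either.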

Additional observations from a re-analysis of the deposited data

How the results depend on the processing

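No paired analysis was possible because each age is 1 library and the labels number no replicates, and no library can be left out. None of the 7 genes that passed changed sign under any alternative, while the counts and the median below did change their order or sign. The genes lower with the totals could not change sign under the shifts given next, which lower every ratio. Relative to the totals, every gene shifts on the log2 scale by −0.43 when centred on the median gene, −0.37 with TMM, −0.43 with DESeq2 size factors and −0.29 without the 100 most abundant genes. The 3 genes higher and 0 lower by 2-fold became 0 and 1 when centred, 1 and 1 with TMM, 0 and 1 with DESeq2 size factors, 1 and 1 without the 100 most abundant genes, 1 and 1 with length and GC bins, and 5 higher with no minimum. The median log2 ratio of the genes that passed, −0.01 with the totals, became −0.44 when centred, −0.39 with TMM, −0.44 with DESeq2 size factors, −0.30 without the 100 most abundant genes, −0.47 with length and GC bins and 0.51 with no minimum. Over all 10211 genes that passed, 2844 were higher and 1081 lower with the totals (27.9% and 10.6%). These became 1633 and 1766 when centred (16.0% and 17.3%) and 1757 and 1668 with TMM (17.2% and 16.3%). They were 1630 and 1771 with DESeq2 size factors (16.0% and 17.3%) and 1991 and 1489 without the 100 most abundant genes (19.5% and 14.6%). With length and GC bins they were 1347 and 1475 of 9902 genes (13.6% and 14.9%). Of 6711 genes with a mean of 100 counts, 1727 were higher and 496 lower. With no minimum, 4619 of 15605 genes were higher and 2403 lower. Summed with its copy, a choice made after seeing the data, Dppa3 had a log2 ratio of 1.07 in place of 1.11. Depth limits the Tet genes, whose 0 to 33 counts give wide intervals. The spread between females is not known for any value.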
